A study of Mus musculus with 15 samples.

Results

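Pax6 and 3 genes next to it on mouse chromosome 2, Elp4, Rcn1 and Wt1, were described across the regions called in 9 ChIP-seq lists. A region belonged here when it touched one of these gene bodies or the 50 kb on either side of one (mm9, gene models of GENCODE vM1), which held for 175 of the 291642 regions and concerned 4 of 22350 protein-coding genes. Pax6 runs forward from 105509053 to 105543317, and Elp4 runs in reverse from 105744721 to 105537477, so that the 3′ ends of these genes overlap. Rcn1 lies from 105226448 to 105239476 on the reverse strand and Wt1 from 104966686 to 105013773 on the forward strand. The windows of Pax6 and Elp4 merge into one of 336 kb, beside 113 kb for Rcn1 and 147 kb for Wt1.

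The control lists (Pax6, RNA polymerase II or Pol2, H3K4me1, H3K4me2 and H3K4me3) came from αTN4 cells, a line of mouse lens epithelium carrying the SV40 T antigen, with a control shRNA. The Pax6 knockdown (KD) lists (H3K4me1, H3K4me2 and H3K4me3) came from the same line with an shRNA against Pax6 (sh2 in the study's methods), and both were pooled populations infected with lentivirus and kept under puromycin selection for 14 days. A further H3K4me2 list came from whole lenses of CD-1 mice at postnatal day 1, which hold epithelium and fibre cells together. Each condition had 1 library, so no p-value was computed, and the intervals given cover counting error only. One label field of the Pax6 and Pol2 libraries names each other's antibody, and these libraries were taken by their titles. The level of Pax6 itself in the KD cells was not analysed here.

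Pax6 is a transcription factor with a paired domain and a homeodomain, and it is required for the eye, including the lens, to form. Its expression in the eye depends on enhancers inside and upstream of the gene and on distant ones inside the introns of Elp4, a gene for a subunit of the Elongator complex that modifies tRNA. Rcn1 encodes reticulocalbin, a calcium-binding protein of the endoplasmic reticulum, and Wt1 a zinc finger factor of the kidney and gonad. H3K4me3 marks active gene starts, H3K4me1 marks enhancers, and H3K4me2 is found at both. Of 11 genes known from the lens, all 11 had H3K4me2 within 2 kb of a start in newborn lens, where 66.8% of all protein-coding genes have it, and 6 had it in control αTN4 cells, where 58.2% do. This list was added after the data had been seen. Prox1, Maf, Six3, Cryaa, Cryab and Crybb1 were the 6, and Foxe3, Bfsp1, Bfsp2, Mip and Cdh1 had none of the marks there in αTN4 cells.

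Pax6 bound at 4 places near these genes in control αTN4 cells: once inside Pax6, at 2 places inside the long last intron of Elp4, and once upstream of Wt1. Rcn1 had no Pax6 peak. A Pax6 peak lay within 50 kb of 3.48% of all protein-coding genes, and of Pax6, Elp4 and Wt1 here. Elp4 had 3 such peaks, the one in Pax6 included, and only 5 genes (0.0224%) had 3 or more. A longer gene has more room for peaks, the Elp4 window is 307 kb long, and these shares were not adjusted for length. The stretches at the Wt1 peak and the Elp4 peaks are printed because the factor was bound there far from the starts of these genes, as the 100 bases to each side of the summit on the forward strand of mm9. Capitals mark matches to 4 short words on either strand: TTCACGCNT, the left part of the paired domain word, with at least 7 of its 8 fixed letters, TNANTGA, its right part, the homeodomain word TAATTA and the AP-1 word TGANTCA.
Upstream of Wt1, chr2:104949006-104949206: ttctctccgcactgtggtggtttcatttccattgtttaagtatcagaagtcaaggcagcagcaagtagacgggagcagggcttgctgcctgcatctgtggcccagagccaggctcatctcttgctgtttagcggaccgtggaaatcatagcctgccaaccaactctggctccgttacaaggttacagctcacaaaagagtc
Elp4 intron 9, first peak, chr2:105619606-105619806: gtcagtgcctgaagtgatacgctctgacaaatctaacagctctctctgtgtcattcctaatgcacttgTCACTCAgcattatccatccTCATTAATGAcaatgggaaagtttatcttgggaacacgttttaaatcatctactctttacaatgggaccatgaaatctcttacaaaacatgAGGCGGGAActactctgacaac
Elp4 intron 9, second peak, chr2:105627977-105628177: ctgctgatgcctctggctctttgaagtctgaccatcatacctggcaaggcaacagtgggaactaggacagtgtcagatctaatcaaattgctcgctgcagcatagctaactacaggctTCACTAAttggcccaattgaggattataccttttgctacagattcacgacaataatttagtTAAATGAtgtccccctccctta

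Of these 3 windows, that of the first Elp4 peak alone held the left word, with 7 of 8 letters at 105619785 to 105619793 on the reverse strand, 83 bp from the summit. Over all 504 Pax6 summits 17.3% held it, against 7.74% and 5.36% of windows centred 500 bp before and after. The right word was found 3 times in the first Elp4 peak and 2 times in the second. It was present in 53.4% of all Pax6 summit windows and in 32.3% and 35.5% of the flanking ones. The window upstream of Wt1 held none of the 4 words, and TAATTA and TGANTCA were found in none of the 3 windows, where 5.16% and 21.8% of all summit windows hold them.

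The first Elp4 peak, from 105619498 to 105619795, was the strongest of the 4, with a fold enrichment over local background of 7.81 and a −log10 q of 10.5. Its fold stood above 68.9% of the Pax6 list. The second, from 105627851 to 105628172, reached a fold of 6.41 and the 38.1st percentile. The peak in Pax6 intron 7, from 105528527 to 105528663 and 19.5 kb into the gene, had a fold of 6.01 (28.1st percentile), and that upstream of Wt1, from 104949029 to 104949191 at −17.6 kb from the Wt1 start, one of 5.84 (23.9th percentile). Thus 3 of the 4 were below the middle of the list by fold, although the peaks in Elp4 were the 42nd and 23rd widest of 504.

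The marks at the 4 Pax6 peaks differed between Pax6 and Elp4. The share of all Pax6 peaks under each mark is not given here, so these counts do not set the 4 peaks apart from the list. H3K4me2 covered all 4 in control and in KD cells, and 3 of them in lens, where the peak upstream of Wt1 was without it and 13781 bp from the nearest H3K4me2. H3K4me1 lay over the Elp4 peaks and the Wt1 peak in control cells and not over the one in Pax6, which was 938 bp from the nearest island, as the broad H3K4me1 regions are called. In KD cells H3K4me1 remained over the second Elp4 peak and the Wt1 peak, and the island next to the first Elp4 peak began 406 bp beyond it. The Pax6 intron peak lay inside a Pol2 peak of 1657 bp, from 105527392 to 105529048, and was the only one of the 4 with Pol2. It had no H3K4me3 in control cells and a weak H3K4me3 peak in KD cells, from 105528470 to 105528716, with a fold of 3.55 at the 0.507th percentile of its list.

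**Figure D1:**
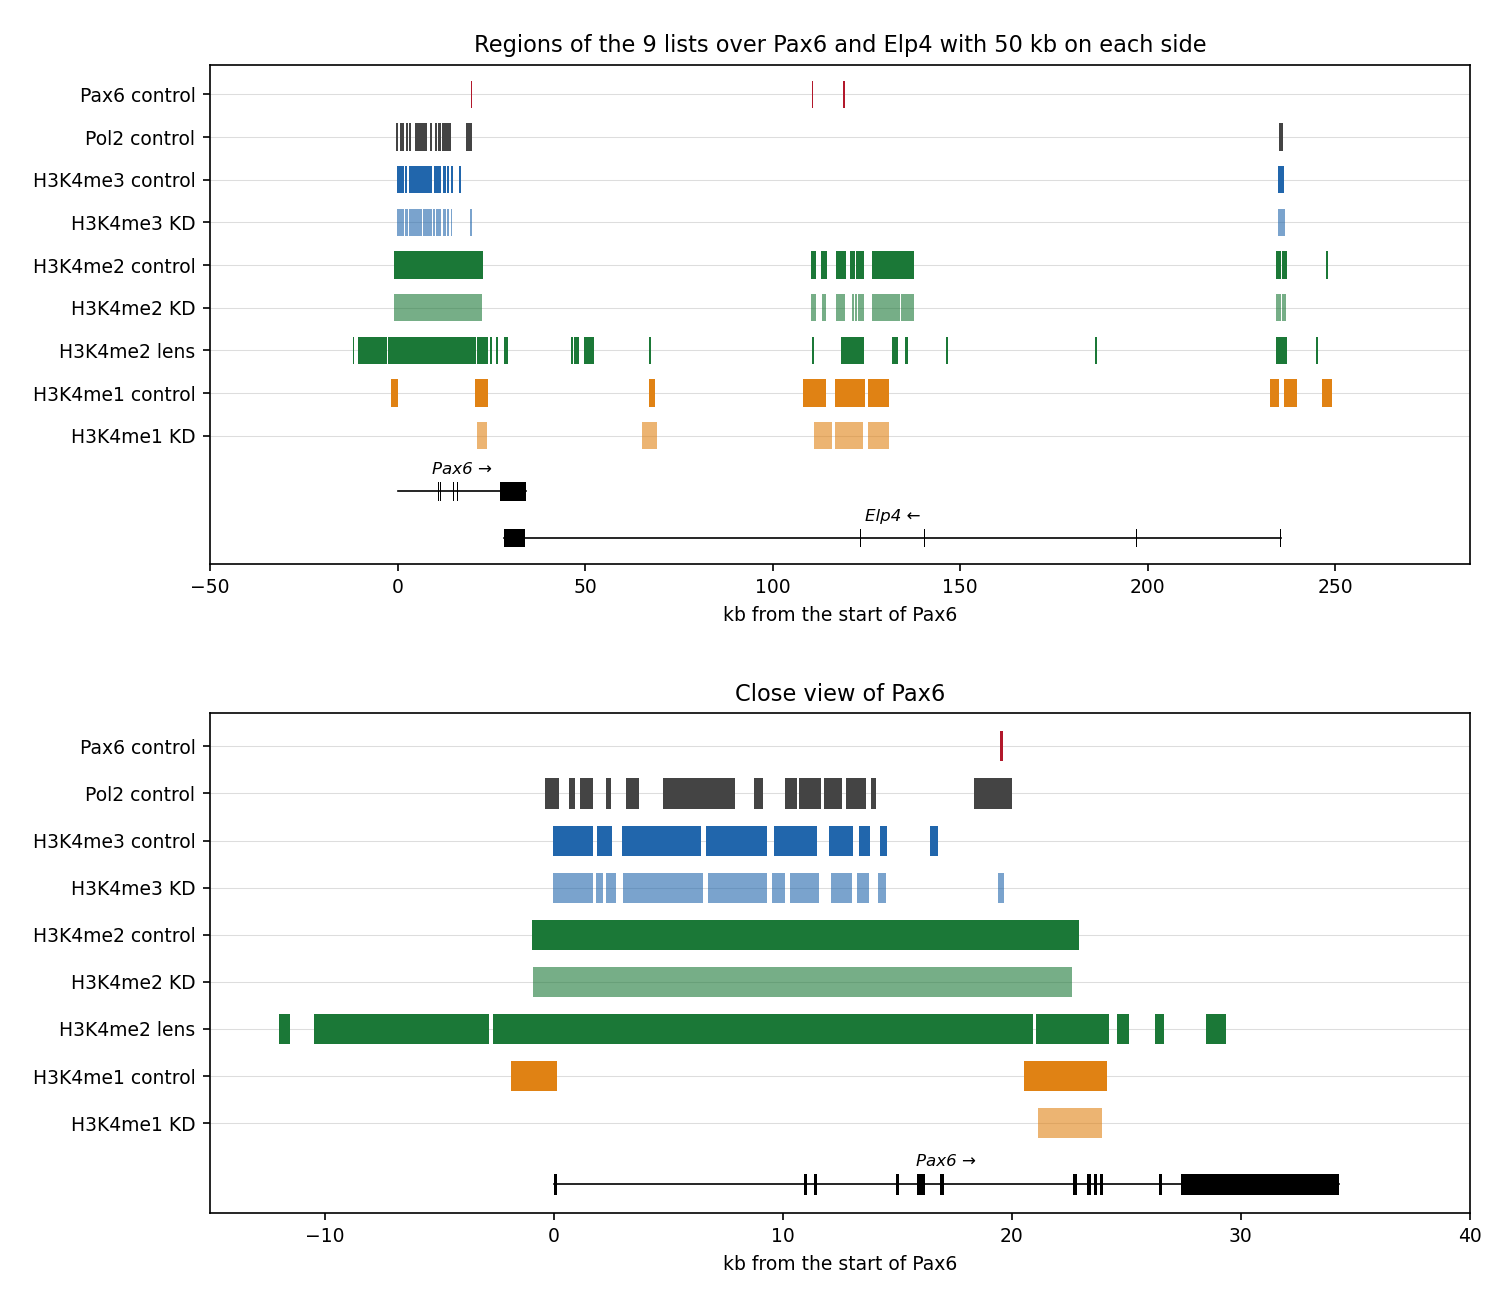
Regions of the 9 lists (rows) over the Pax6 and Elp4 window (top) and a close view of Pax6 (bottom), in kb from the Pax6 start; bars are called regions, the narrowest drawn wider than they are, paler bars are KD lists, and black blocks are exons. One H3K4me2 peak spans most of Pax6 in all 3 H3K4me2 lists, lens alone has peaks 10.5 kb upstream and around 50 kb downstream, and a cluster of H3K4me1 and H3K4me2 lies more than 100 kb downstream inside Elp4.

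A single H3K4me2 peak covered most of the Pax6 gene in every H3K4me2 list, and it was the widest peak of each. In control cells it ran for 23886 bp from 105508090 to 105531975, in KD cells for 23544 bp from 105508154 to 105531697, and in lens for 23574 bp from 105506405 to 105529978. The second widest peak was of 21157 bp over Plec, a cytolinker gene, in control cells, 15419 bp outside any protein-coding gene in KD cells and 15986 bp in lens, while the median widths were 865, 727 and 709 bp. Its fold was 25.1 in control cells (98.7th percentile of the list), 20.9 in KD cells (90.3rd) and 33.2 in lens (99.2nd). Control, KD and lens lists thus shared this domain. Of the distinct starts of protein-coding Pax6 transcripts, 21 over 20.6 kb, all 21 lay inside it in each of the 3 lists.

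H3K4me3 and Pol2 lay within this domain in separate peaks, most of them in its 5′ part. In control cells 9 H3K4me3 peaks covered 12504 bp of the control domain, and in KD cells 11 peaks covered 12457 bp of it. The widest H3K4me3 peaks at Pax6, 2.98 to 6.43 kb from the start in control cells with 3450 bp and 3.03 to 6.51 kb in KD cells with 3475 bp, ranked 61 of 14869 and 41 of 14301 by width. Pol2 had 13 peaks there that covered 10737 bp of the domain, of which the strongest, from 4.77 to 7.91 kb, was 3143 bp wide with a fold of 17.7. Pol2 covered 30.2% of the Pax6 gene body, more than in 97.4% of protein-coding genes, and H3K4me3 covered 36.4% in control and 36.2% in KD cells. H3K4me1 lay at the ends of the domain, over 3486 bp of it in control cells. Its islands there ended 0.147 kb after the Pax6 start and began again at 20.5 kb, with none between. Pax6os1, a noncoding gene that starts 1434 bp into Pax6 on the other strand, has its start inside the domain, and reads of the 2 genes cannot be told apart in ChIP-seq.

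Lens H3K4me2 reached farther upstream and downstream of Pax6 than αTN4 H3K4me2. A peak of 7663 bp lay in lens from 105498589 to 105506251, at −10.5 to −2.80 kb from the Pax6 start, with a fold of 25.8 (90.9th percentile), and a small one of fold 3.69 began at −12.0 kb. Both were absent from control and KD cells, where H3K4me2 began at −0.963 and −0.899 kb. In the 20 kb upstream of Pax6, H3K4me2 covered 10.8 kb in lens, 0.963 kb in control and 0.899 kb in KD cells. Downstream, 4 lens peaks lay from 46.2 to 52.4 kb after the start, within intron 9 of Elp4, with folds of 4.21, 3.62, 4.74 and 8.35, and the αTN4 lists had no region of any mark from 40 to 60 kb. At 67.2 kb a lens H3K4me2 peak of fold 3.98 lay in an H3K4me1 island that both αTN4 conditions carried without H3K4me2. By ChIP reads per kb this island, from 105576001 to 105577800, was at the 92.8th percentile of the control list, the highest of the distal islands here. Its input was high as well, at 20.6 reads per kb against 13.7 over all control islands. Its fold over input of 3.22 was below the list median of 3.51.

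The cluster inside Elp4 was, by contrast, more extensive in αTN4 cells. Between 100 and 140 kb from the Pax6 start, in introns 9, 8 and 7 of Elp4, H3K4me2 covered 20.1 kb in control cells (6 peaks), 18.6 kb in KD cells (8 peaks) and 8.34 kb in lens (7 peaks). H3K4me1 had 3 islands there in control and 3 in KD cells, and neither H3K4me3 nor Pol2 had a peak. The strongest αTN4 peak of the cluster lay across introns 9 and 8, from 105631240 to 105633507 with a fold of 17.8 (87.4th percentile) in control and from 105631780 to 105633494 with 17.9 (84.4th) in KD cells. In lens the matching peak, from 105629045 to 105633397, had a fold of 10.7 (63.2nd percentile). A control peak of 11286 bp in intron 7, from 105635604 to 105646889, was the 22nd widest of its list, and in KD cells it was called as 2 peaks of 7505 and 3724 bp. From there to 5 kb before the Elp4 start, over 90.7 kb, no αTN4 list had a region, and lens had 2 H3K4me2 peaks of 219 and 278 bp. Which bases of these introns are enhancers already described by others was not examined here.

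Of all control H3K4me2 peaks, 58.7% had no overlapping lens peak, and near the 4 genes the share was 16 of 27, or 59.3% (95% Wilson interval 40.7 to 75.5). The share differed between the loci. Around Pax6 and Elp4 2 of 10 control peaks had no lens counterpart (interval 5.67 to 51.0%), around Rcn1 1 of 3, and around Wt1 13 of 14 (92.9%, 68.5 to 98.7). The intervals for Pax6 and Elp4 and for Wt1 do not overlap, though neighbouring peaks of one locus are not independent of each other. Peak widths also differ between the loci, and an overlap of 1 bp was enough. The control peak of 11286 bp in Elp4 counted as shared with 1668 bp under lens peaks. In the other direction, 54.6% of all lens peaks had no control counterpart, against 25 of 39 near the 4 genes (64.1%, 48.4 to 77.3), made up of 13 of 24 at Pax6 and Elp4, 7 of 9 at Rcn1 and 5 of 6 at Wt1. Of KD peaks, 18 of 31 near the genes and 57.4% of the whole list had no lens peak. Merging the 3 H3K4me2 lists gave 53 sites, of which 10 were called in all 3 lists, 14 in both αTN4 lists alone, 25 in lens alone, 2 in control alone and 2 in KD alone. The same split over the whole lists is not given here. The 10 shared sites spanned 56.2 kb, and 4 of them carried H3K4me3 in control cells. No lens list of H3K4me3 was among the lists, so the 25 sites in lens alone could not be compared for this mark. Lens tissue and the line differ in cell make-up and in transformation, which cannot be told apart.

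**Figure D2:**
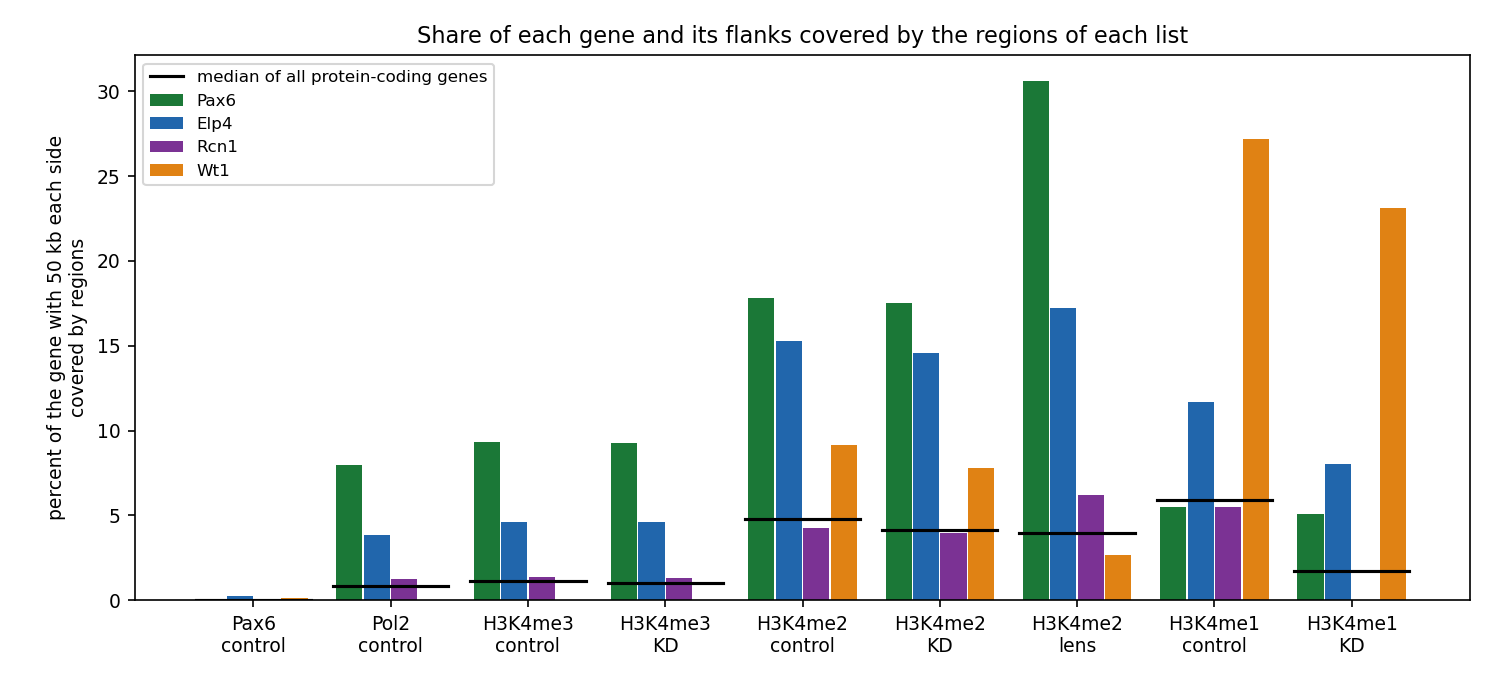
Percent of each gene with its 50 kb flanks (coloured bars) that the regions of each list (horizontal axis) cover, with the median over all 22350 protein-coding genes as a black line. Pax6 has the highest bar for H3K4me2 in lens, at 30.6%, and Wt1 the highest for H3K4me1, at 27.2% in control and 23.1% in KD cells.

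Pax6 had high coverage by H3K4me2 and Wt1 by H3K4me1. H3K4me2 covered 17.8% of the Pax6 window in control, 17.5% in KD cells and 30.6% in lens, which was more than in 93.5%, 95.6% and 99.8% of protein-coding genes. H3K4me1 covered 5.51% of it in control cells, near the median of 5.90%. At Wt1 27.2% was under H3K4me1 in control cells (more than in 89.1% of genes) and 23.1% in KD cells (92.5%), with H3K4me2 at 9.18% in control, 7.78% in KD cells and 2.66% in lens. Rcn1 was near the medians for H3K4me2 and H3K4me3, with 4.26% and 1.37% in control cells. The Elp4 window, at 15.3% under H3K4me2 in control cells, includes the whole Pax6 gene, so that its values are not separate from those of Pax6.

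Of the 4 genes, 3 had H3K4me3 within 2 kb of a start in control cells, Pax6, Elp4 and Rcn1, where 49.1% of all protein-coding genes have it. The same 3 had it in KD cells (47.8% of all genes), and they had Pol2 (48.0%) and αTN4 H3K4me2 (58.2% in control, 57.1% in KD cells). All 4 had lens H3K4me2 at a start, as do 66.8% of genes. H3K4me1 was within 2 kb of a start of Pax6, Elp4 and Rcn1 in control cells (36.0% of genes), and of Pax6 alone in KD cells (16.8%), through its alternative starts. A Pax6 peak lay within 2 kb of a start of Pax6 alone, again an alternative one, where 0.255% of all genes have one.

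The bases just before the starts are printed for comparison of the marked starts with that of Wt1, each in the direction of the gene, except for the gap between Elp4 and Immp1l, which is on the forward strand. Capitals mark CpG.
Before Pax6, chr2:105508953-105509052: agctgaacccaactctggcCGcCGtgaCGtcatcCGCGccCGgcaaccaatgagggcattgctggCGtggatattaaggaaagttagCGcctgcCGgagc
Between Elp4 and Immp1l, chr2:105744722-105744794: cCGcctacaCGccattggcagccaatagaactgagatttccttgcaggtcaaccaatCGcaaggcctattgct
Before Rcn1, chr2:105239477-105239576: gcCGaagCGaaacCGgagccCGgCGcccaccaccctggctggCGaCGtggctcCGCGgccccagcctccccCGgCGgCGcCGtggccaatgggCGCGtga
Before Wt1, chr2:104966586-104966685: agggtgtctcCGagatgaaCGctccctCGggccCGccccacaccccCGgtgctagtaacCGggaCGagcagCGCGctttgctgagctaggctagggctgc

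Rcn1 had the most CpG of these stretches, 15 in 100 bases with 79.0% G and C, while Pax6 and Wt1 both had 9 in 100 bases, with 61.0% and 68.0%, and the gap between Elp4 and Immp1l had 3 in 73 bases with 52.1%. Over 500 bp to each side of the start, the ratio of observed to expected CpG was 0.567 at Pax6, 0.564 at Elp4, 0.728 at Rcn1 and 0.656 at Wt1, each above the median of 0.549 of protein-coding genes. The ratio at Wt1, the start without H3K4me3, was thus above those at Pax6 and Elp4 and below that at Rcn1. The window before Wt1 overlaps the noncoding gene AI314831, which starts 19 bp from Wt1 on the other strand.

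Elp4 shares its start region with Immp1l, a gene for a subunit of the inner mitochondrial membrane peptidase, with 73 bp between their starts. A Pol2 peak from 105744176 to 105745213 with a fold of 18.9 (82.2nd percentile) and an H3K4me3 peak from 105743944 to 105745583 with a fold of 29.6 (81.6th) spanned both starts in control cells, and they cannot be assigned to one of these genes. In KD cells the H3K4me3 peak had a fold of 23.5 and stood at the 88.5th percentile. H3K4me2 formed a peak on either side with a gap between them, which held both starts in control and KD cells and that of Elp4 in lens. On the Elp4 side its fold was 16.6 in control, 22.1 in KD cells and 26.3 in lens, and on the Immp1l side its percentile was 80.2, 95.6 and 85.4.

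At the Rcn1 start, H3K4me3 had a fold of 34.8 (90.4th percentile) from 105238504 to 105240046 in control and of 21.9 (84.7th) in KD cells, and Pol2 one of 12.5 (61.9th). Its H3K4me2 peak had a fold of 13.3 in control cells (75.2nd percentile), 27.2 in KD cells (97.5th) and 23.7 in lens (86.7th). Of all H3K4me2 peaks paired 1 to 1 between control and KD cells, 95.6% changed less toward a higher rank. H3K4me1 flanked the start in control cells on both sides and was absent from the whole Rcn1 window in KD cells. Downstream of Rcn1, lens H3K4me2 from 105210171 to 105211485 had a fold of 9.85 (61.4th percentile) and overlapped αTN4 peaks of fold 7.61 in control and 5.90 in KD cells.

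**Figure D3:**
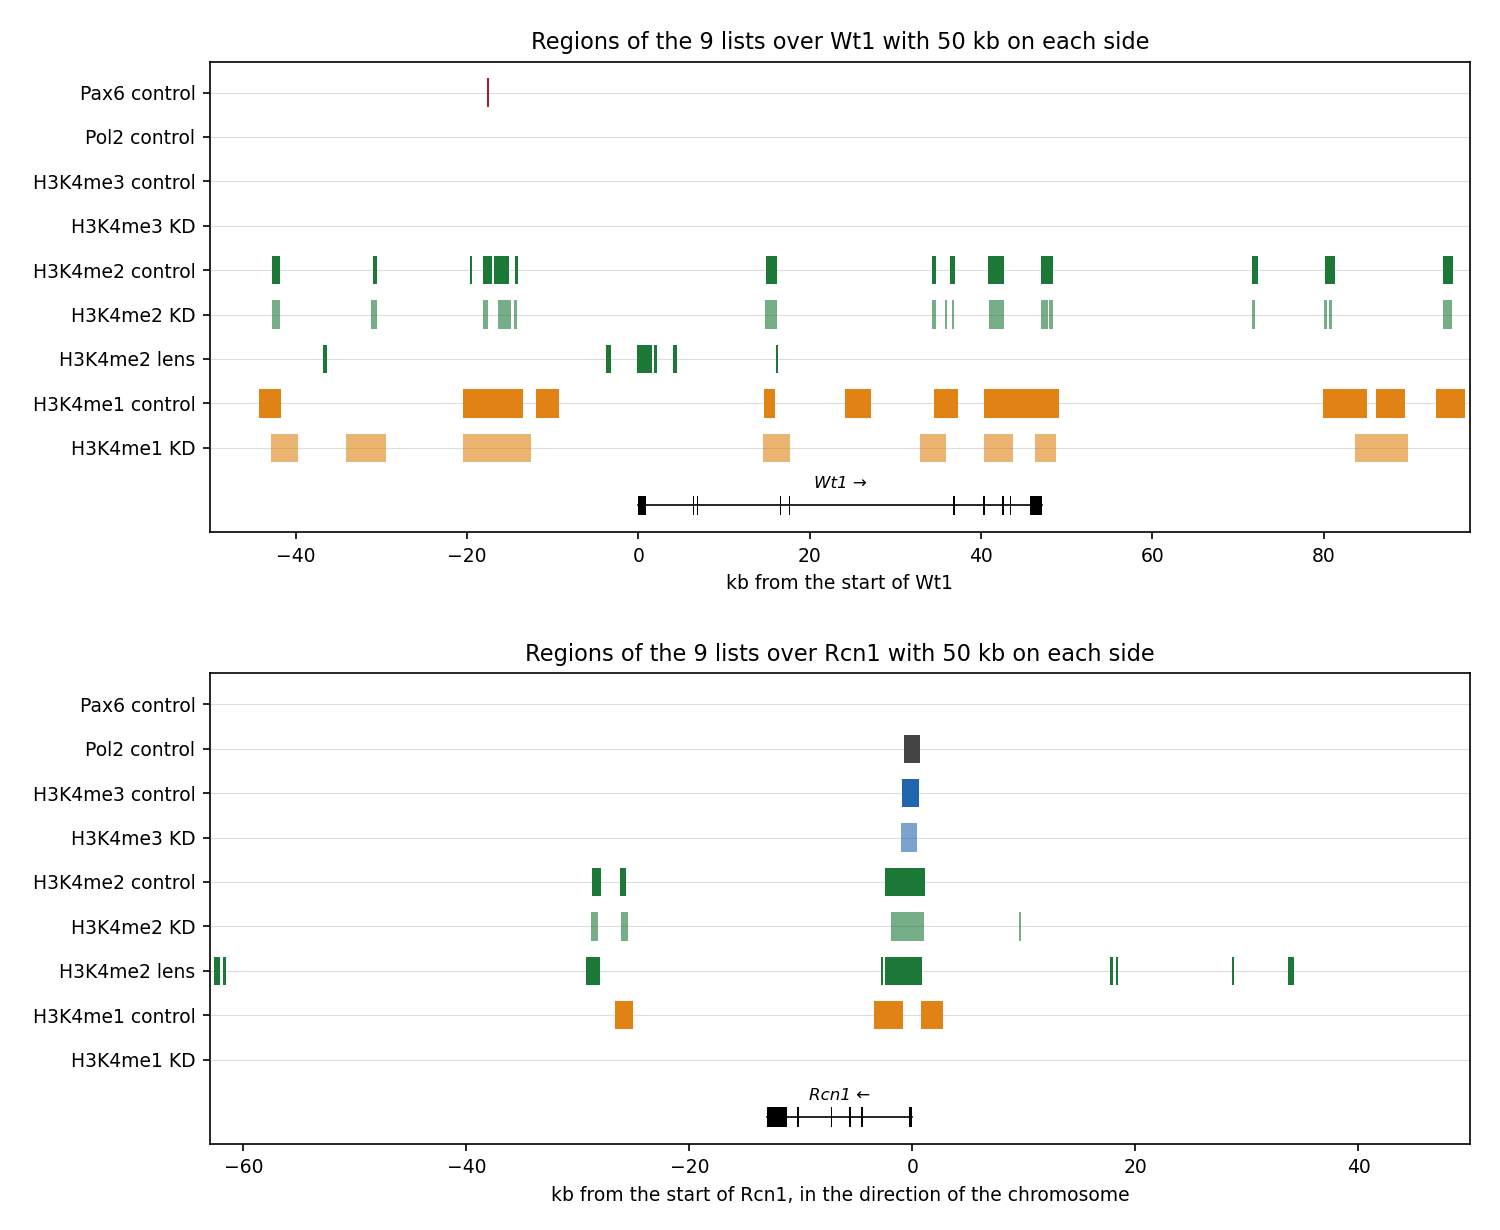
Regions of the 9 lists (rows) over Wt1 (top) and Rcn1 (bottom) with 50 kb on each side, in kb from the start of each gene, drawn as in the map of Pax6 and Elp4. The Wt1 start carries H3K4me2 in lens alone, and the Rcn1 start carries Pol2, H3K4me2 and H3K4me3.

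Wt1 had many distal regions in αTN4 cells and none at its start. Lens H3K4me2 lay over the start from 104966497 to 104968324, 1828 bp wide with a fold of 10.8 (63.4th percentile), and neither Pol2 nor H3K4me3 had a peak in the whole window. In αTN4 cells H3K4me2 had 14 control and 16 KD peaks away from the start. The strongest, 94.2 kb after the start from 105060623 to 105061854, had a fold of 15.5 (81.6th percentile) in control and 12.5 (70.8th) in KD cells. In control cells this peak was 2.62 kb from the nearest protein-coding start, which lies beyond the window and is not that of Wt1. The peak over the Pax6 site upstream of Wt1, from 104948525 to 104949565, had a fold of 7.34 in control and 7.19 in KD cells. It lay in an H3K4me1 island of 7000 bp with 161 ChIP reads in control and of 8000 bp with 150 in KD cells. By ChIP reads per kb, the highest distal H3K4me1 island of KD cells lay in Wt1 intron 7, from 105007001 to 105010400, with 92 ChIP reads at the 95.6th percentile. A control island with the same start ran to 105015800, over 8800 bp, with 196 ChIP reads at the 61.4th percentile. The KD list had a further island within it, from 105013001 to 105015400, so the calls differ in width. In control cells the highest at Wt1 lay in intron 3, from 104981401 to 104982600, with 35 ChIP reads at the 89.3rd percentile. One lens peak of 201 bp in intron 3 met an αTN4 peak, the only place in this window where lens and αTN4 H3K4me2 overlapped. Gm11060, the other protein-coding gene that starts in the window, had lens H3K4me2 and KD H3K4me1 within 2 kb of its start and no other region.

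The comparison of control with KD cells asks how H3K4 methylation near Pax6 stood once Pax6 was reduced. Of all control H3K4me1 islands 53.8% had no KD island over them, and near the 4 genes 10 of 22 had none (45.5%, 26.9 to 65.3), which is not apart from the whole list. All 3 at Rcn1 were among them, with 3 of 10 at Wt1 and 4 of 9 at Pax6 and Elp4. The 4 were the island at the Pax6 start, from 105507201 to 105509200 with a fold of 2.77, those on both sides of the Elp4 and Immp1l starts with folds of 2.47 and 1.83, and one 247 kb from Pax6 with a fold of 1.96. The other 5 islands, in Pax6 intron 7, which holds an alternative start, and in Elp4 introns 9 and 7, had a KD counterpart. At Rcn1 the folds of the islands without a counterpart were 2.82, 2.69 and 1.75, and at Wt1 they were 2.52, 1.72 and 4.99. In the other direction 6.93% of all KD islands had no control island, and near these genes 1 of 13, from 104932601 to 104937200 upstream of Wt1. The KD list holds 18417 islands and the control list 38007, so that fewer islands were called in all.

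**Figure D4:**
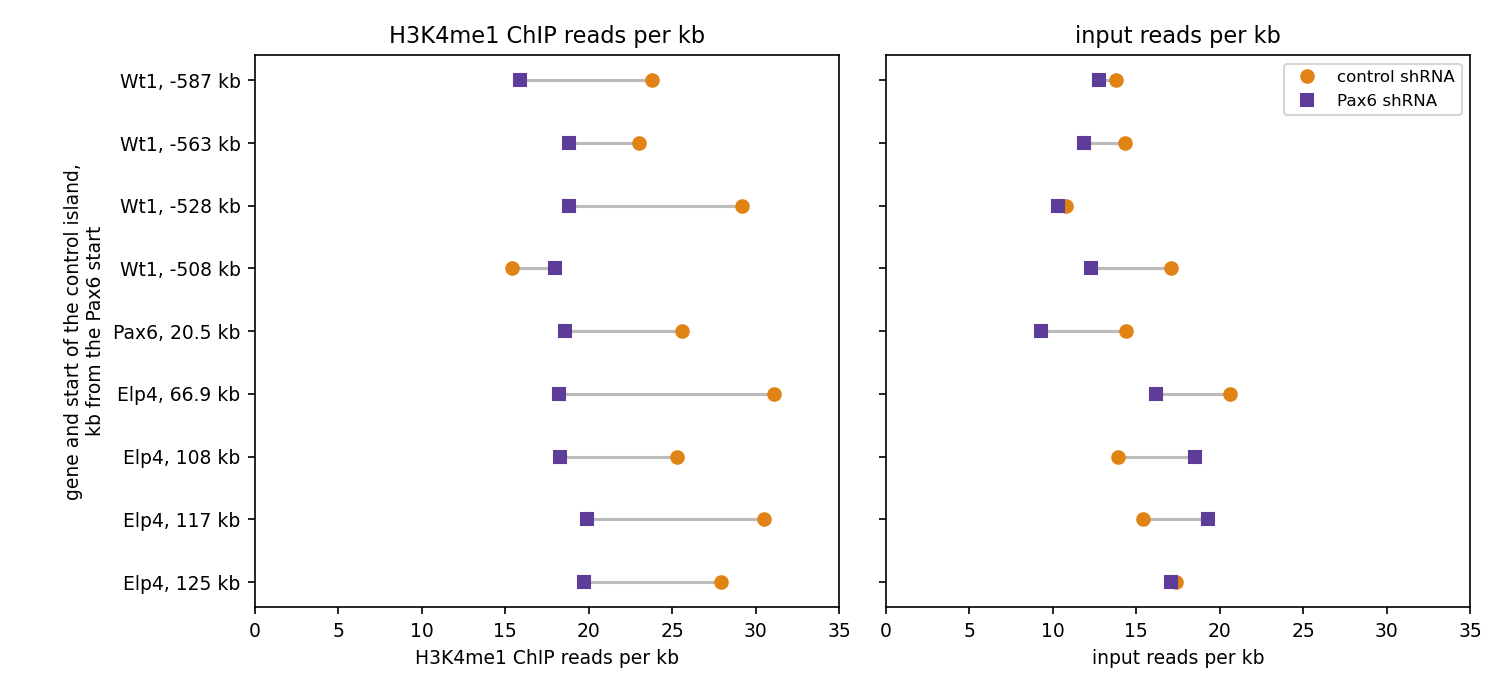
H3K4me1 ChIP reads per kb (left) and input reads per kb (right) in the 9 islands near the genes that were paired 1 to 1, in control (circles) and Pax6 shRNA (squares) αTN4 cells, 1 library each. ChIP reads per kb are lower in the KD library in 8 of the 9 pairs. Over all 13763 paired islands they were lower as well, with a median log2 change of −0.31. Of all pairs, 83.1% had a lower fold over input in KD, and the share with lower ChIP reads per kb is not given here. Input reads per kb are higher in KD in the Elp4 islands at 108 and 117 kb.

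The read counts of the islands separate the ChIP from the input. Over the 9 pairs, ChIP reads numbered 1012 in control and 785 in KD cells, and input reads 596 and 624. Per kb and relative to the median change of all 13763 paired islands, which was −0.31 on the log2 scale, the reads per kb of these islands differed by −0.17 (log2, exact binomial interval −0.30 to −0.03). The islands were called separately, over 39000 bp in control and 42000 bp in KD cells with 25.9 and 18.7 ChIP reads per kb. Only 1 pair had the same edges, so that the −0.17 is not a fold change of the mark over fixed sequence. Its interval covers counting error only, while the log2 changes of all single pairs had a standard deviation of 0.35. Relative to the median, the changes of the 9 pairs ran from −0.46 to 0.54. In the Elp4 pair at the first Pax6 peak, whose KD island begins beyond the peak, ChIP reads per kb were 25.3 in control and 18.3 in KD cells, and input reads per kb 13.9 and 18.5. In the pair over the second Pax6 peak they were 30.5 and 19.9 for ChIP and 15.4 and 19.3 for input. The third pair, in intron 7, with the same edges in both conditions, had 27.9 and 19.7 ChIP reads and 17.4 and 17.1 input reads per kb.

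Among the 9 pairs, the fold over input differed most in the first 2 of these Elp4 pairs. It was 3.89 in control and 1.58 in KD cells in the first and 4.22 and 1.64 in the second, log2 changes of −1.30 and −1.36 that only 2.61% and 1.94% of all paired islands undercut. In the third it was 3.42 and 1.84 (14.3rd percentile of change), and in the island 20.5 kb into Pax6 3.77 and 3.20 (66.8th percentile). By ChIP reads per kb alone, the first 2 stood at the 30.4th and 17.5th percentiles, and by input reads per kb at the 98.2nd and 97.0th. The Pax6 island had 25.6 ChIP reads per kb in control and 18.6 in KD cells, at the 31.7th percentile of change, close to the first Elp4 pair. Its input reads per kb were 14.4 and 9.29, at the 14.2nd percentile. The input moved with the fold here, and its part in the result was not tested. At Wt1 the island over the Pax6 peak had 23.0 and 18.8 ChIP reads per kb, at the 51.3rd percentile of change.

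**Figure D5:**
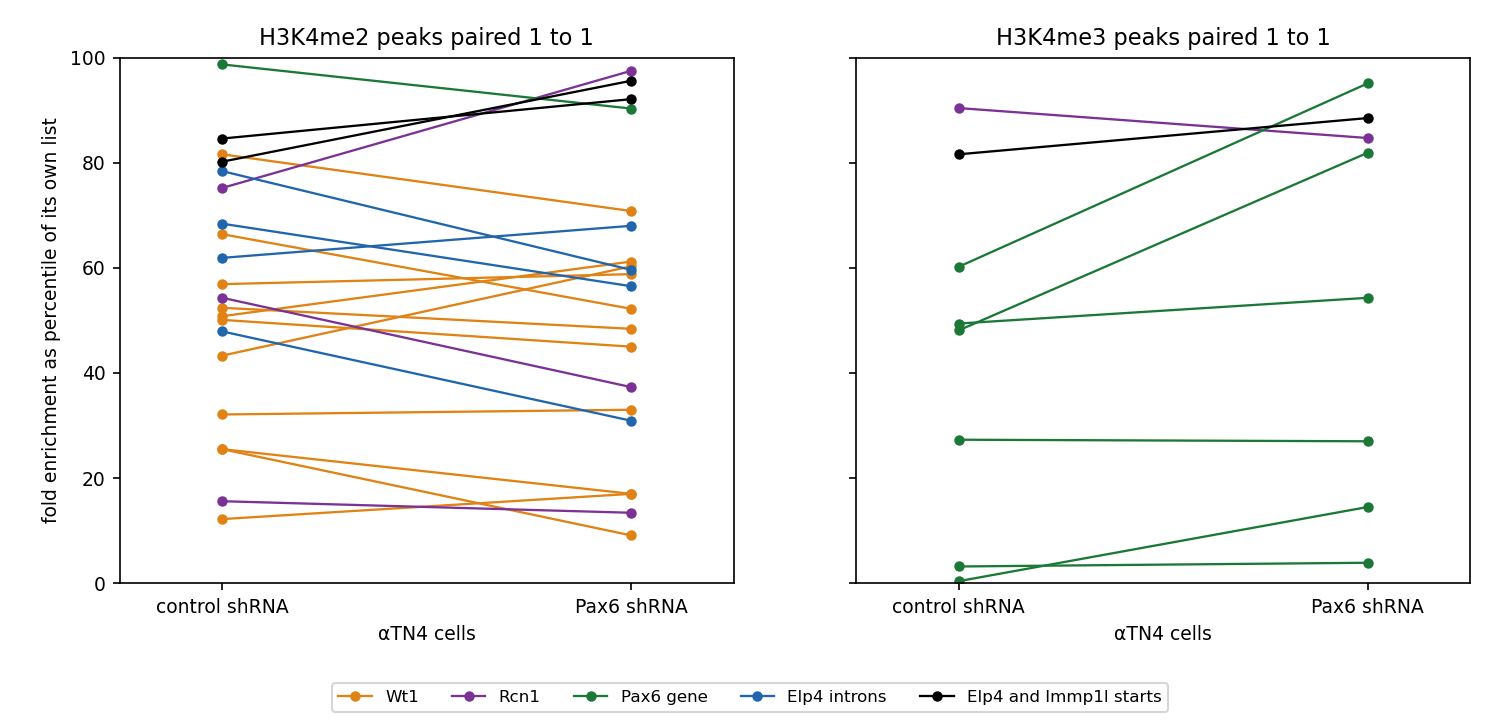
Fold enrichment as percentile within its own list, for H3K4me2 (left) and H3K4me3 (right) peaks near the genes that were paired 1 to 1 between control and Pax6 shRNA αTN4 cells, 1 line per pair. At Pax6, 2 H3K4me3 peaks go from the 48.1st and 60.2nd percentile to the 81.9th and 95.1st.

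At Pax6, 2 of the H3K4me3 peaks stood much higher in the KD list than in the control list. Of all control H3K4me3 peaks 10.1% had no KD peak, and near the 4 genes 1 of 11 had none (9.09%, 1.62 to 37.7), a weak peak from 105525484 to 105525835 in Pax6 intron 6 with a fold of 4.50. The peak at the Pax6 start had a fold of 16.7 in control and 20.9 in KD cells, and its rank went from the 48.1st to the 81.9th percentile, a larger change than in 99.5% of the 12115 peaks paired 1 to 1. Another, at 6.66 kb, went from 21.0 to 27.3 and from the 60.2nd to the 95.1st percentile, beyond 99.6%. The peak between them had 17.3 and 14.0, or the 49.4th and 54.3rd percentiles. Over the paired peaks the median fold was 19.1 in control and 13.8 in KD cells, and 8.69% of all pairs had a higher fold in KD cells. Of the 7 paired peaks at Pax6 and Elp4, 3 had a higher fold in KD cells and 4 a lower one. By rank 6 were higher and 1 lower, where 40.3% of all pairs were higher, and some of these differences were small, as from the 3.18th to the 3.89th percentile. The 7 include the peak over the Elp4 and Immp1l starts, 235 kb from the Pax6 start, which went from the 81.6th to the 88.5th percentile. All 7 lie in 1 window, with 1 library per condition. Whether the difference exceeds the spread between replicates cannot be told. The peak of KD cells alone, 1 of 13 where 2.65% of the KD list had no control peak, was the one over the Pax6 site in intron 7.

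Most H3K4me2 peaks were called in both conditions. Of all control H3K4me2 peaks 17.5% had no KD peak, and near the 4 genes 2 of 27 had none (7.41%, 2.06 to 23.4): a peak of fold 3.45 from 104947081 to 104947294 upstream of Wt1 and one of fold 3.77 from 105756703 to 105757079 beyond Immp1l. Among KD peaks 2 of 31 had no control peak, where 7.34% of the list had none, from 105002445 to 105002700 in Wt1 intron 5 with a fold of 4.51 and from 105249018 to 105249229 upstream of Rcn1 with 4.86. In rank, the peak over the second Pax6 site in Elp4 went from the 78.4th to the 59.6th percentile, at the 10.7th percentile of change, while that over the first went from the 61.9th to the 68.0th, at the 77.1st. These neighbouring sites, both bound by Pax6, thus differed in the direction of the H3K4me2 rank change, in 1 library each.

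Related genes were compared at their starts, where in control cells 49.1% of all protein-coding genes have H3K4me3, 48.0% Pol2 and 58.2% H3K4me2, and in lens 66.8% have H3K4me2. In the Pax family, H3K4me3 and Pol2 marked the starts of 2 of 9 genes in control cells, Pax6 and Pax3, and lens H3K4me2 marked 8 of 9, all but Pax4. Wt1 was like most of that family, with lens H3K4me2 and no αTN4 mark at the start. Among the Wt1 and Egr zinc finger genes, Egr1, Egr2 and Egr3 had H3K4me3 in control cells and Egr4 and Wt1 did not, and all 5 had lens H3K4me2. Every Elongator subunit gene (6 of 6) had Pol2, H3K4me2 and H3K4me3 at its start, in control and KD cells alike for both marks, and H3K4me1 was near Elp4 and Elp5 alone. Each of the 5 genes of the Rcn1 family (Rcn1, Rcn2, Rcn3, Sdf4 and Calu) had Pol2 and H3K4me3 in control cells, and Rcn3 lacked H3K4me3 in KD cells. Along the conserved block from Dcdc5 to Qser1, 8 of 11 genes had H3K4me3 at the start in control cells, and Dcdc5, Ccdc73 and Wt1 did not. The only block genes with a Pax6 peak within 50 kb were Pax6, Elp4 and Wt1.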

How the data were processed

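Regions near Pax6, Elp4, Rcn1 and Wt1 were taken from 9 lists made by the authors. Reads had been mapped to mm9 by Bowtie. At default settings, MACS2 gave the peaks of Pax6, Pol2, H3K4me2 and H3K4me3, and SICER gave the H3K4me1 islands. According to the study's methods, regions on the modENCODE blacklist were left out, which was not checked in the deposited lists. The deposited peak lists give a fold enrichment (a ratio) and p- and q-values as −log10, and a score. The deposited island lists give ChIP and control read counts, a fold (ratio) and p-values with a false discovery rate. The control library is not named in the sources used here, and its reads are called input. Read totals of the MACS2 libraries are unknown, and names in the control H3K4me2 list hint that replicates were pooled. Island edges fall on steps of 200 bp, and a called edge is no finer than that.

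Genes and starts came from GENCODE vM1 on NCBIM37 (mm9), sequences from that genome, and introns were numbered in transcript 001 of each gene. Coordinates are 1-based on chromosome 2. Regions overlapped when they shared at least 1 bp. Folds of separate lists are set side by side as deposited, and ranks are percentiles within a list, by fold for peaks and by ChIP reads per kb for islands. Shares carry 95% Wilson intervals. Since the deposited lists were called separately per library, with 1 library per condition, no test was run. The islands hold 3289553 ChIP reads in control and 1849269 in KD cells, and 2050497 and 1188362 input reads. Alternatives were stricter lists (−log10 q of at least 5, or false discovery rate of at most 1e-06), gene bodies alone, 100 kb flanks, an overlap of at least 50% of a region, and other distances from starts. Regions named were every Pax6 peak, those over a start of the 4 genes or over a Pax6 peak, the 3 of highest rank in each list more than 2 kb from a start, and those of 1 condition only where there were 10 or fewer. Other regions, such as the lens peaks around Pax6 and the single islands, were named after their values were seen. Members and gene lists were chosen with earlier results of these data known, and the list of lens genes was added last. Dcdc1 is not in the annotation used. RNA-seq and input libraries were not analysed here, and the sequence at 1 Pax6 peak is not reported here. Overlap and density steps were tested on simulated data. Python 3.11.15, pandas 2.3.3, numpy 2.4.6, scipy 1.17.1 and matplotlib 3.10.9 were used.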

Additional observations from a re-analysis of the deposited data

How the results depend on the processing

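Of 30 alternatives over the 8 main values, 25 stayed within the interval of the value or, for counts, within 1.5 times it, and 5 moved. Within the gene bodies alone, 0 of 14 control H3K4me2 peaks had no KD peak, in place of 7.41%, and 35.7% of control H3K4me2 peaks (5 of 14) had no lens peak, in place of 59.3%; this setting leaves out the Wt1 and Rcn1 flanks. Where at least 50% of a region had to be covered, 25.9% of control H3K4me2 peaks (7 of 27) counted as without a KD peak. In the stricter lists 0 of 9 control H3K4me3 peaks were without a KD peak, since the weak peak in Pax6 intron 6 drops out of the list. Relative to the input reads of the same islands, the H3K4me1 reads of the paired islands differed by −0.43 (log2, −0.57 to −0.30). The main value was −0.17. That value is relative to the median change of all paired islands and the −0.43 is not, so these are unlike measures. The interval of the −0.43 leaves out the counting error of the input reads. The Pax6 peaks numbered 4 in the stricter list and with 100 kb flanks, and 3 in the gene bodies alone. H3K4me3 marked 3 of the 4 genes under every distance tried. No paired analysis was possible because each condition had 1 library. The depth of the peak libraries is unknown, so that a region missing from a list was not called there, and a lower level cannot be told from a shallower library.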

Other observations

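A site just outside the window, at −52.8 kb from the Pax6 start, carried several marks and was left out of the counts above. Control H3K4me1 lay there from 105452401 to 105457800 with a fold of 2.93, and KD H3K4me1 from 105452601 to 105457600 with 1.96. H3K4me2 had a fold of 10.9 in control cells, 15.4 in KD cells and 9.74 in lens, and Pol2 a peak of fold 6.19 from 105455768 to 105456762. H3K4me3 had a weak peak of fold 3.56 in control cells, and the KD list had none between Rcn1 and Pax6.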
